A study of Mus musculus with 4 samples.

Results

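Voltage-gated and potassium channel genes were examined in heart nuclei that had been sorted into endothelial and non-endothelial populations and profiled by ATAC-Seq. The members were the protein-coding genes of the mouse annotation whose symbol starts with Kcn, Scn, Cacn or Hcn, without Scnm1 and Kcnrg, which share only the letters. This rule gave 140 of 21755 genes. By symbol they comprised 10 sodium channel alpha subunits (Scn), 4 sodium channel beta subunits, 3 epithelial sodium channel subunits (Scnn, taken in by the letters although they are not voltage-gated), 10 pore-forming calcium channel subunits (Cacna1), 16 accessory calcium channel subunits (4 Cacna2d, 4 Cacnb and 8 Cacng), 4 pacemaker channels (Hcn), 40 voltage-gated potassium channel alpha subunits, 15 inward rectifiers (Kcnj), 14 background potassium channels (Kcnk), 8 calcium- or sodium-activated potassium channels (Kcnm, Kcnn, Kcnt, Kcnu) and 16 accessory potassium channel subunits (Kcnab, Kcne, Kcnip, Kcnmb).

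These proteins let ions cross the membrane and set its voltage. In a working cardiomyocyte voltage-gated sodium channels give the upstroke of the action potential, the L-type calcium channel Cacna1c admits the calcium that triggers contraction, and a set of potassium channels (Kcnd2, Kcnd3, Kcnq1, Kcnh2, Kcnj2) repolarizes the cell and holds its resting voltage. Pacemaker and atrial cells add Hcn4, Cacna1d, Cacna1g and the acetylcholine-gated pair Kcnj3 and Kcnj5. Smooth muscle cells and pericytes of the vessel wall, here called mural cells, use the ATP-sensitive channel Kcnj8 and the large calcium-activated channel Kcnma1 with its beta subunit Kcnmb1, endothelial cells (ECs) use Kcnj2, Kcnn3 and Kcnn4, and many other members are known mainly from neurons, where the repressor REST silences a number of such genes outside the nervous system through a site called RE1.

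All animals were male C57BL/6 NuTRAP mice with Cdh5-Cre, 8 to 12 weeks old, in which GFP is switched on in cells of endothelial descent and marks their nuclei. GFP+ (endothelial) and GFP- (all other) heart nuclei were collected, with 2 replicate libraries of each and between 100 and 50000 nuclei per reaction. In ATAC-Seq the Tn5 transposase places sequencing adapters where chromatin is accessible. The authors called peaks from both replicates of a population together, which gave a list of 78912 GFP- peaks and a list of 65008 GFP+ peaks, so that no comparison below has a replicate error, a test or a p-value. Libraries had been downsampled to a common number of reads, and the read count behind a single peak is not in the lists.

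Each peak was ranked by its area, the signal summed over the peak, as a percentile of its own list, from 0 for the smallest to 100 for the largest. A gene's promoter rank is that of the highest peak within 250 bp of any of its annotated transcript starts, and 0 where there is none. Rank differences are GFP+ minus GFP-, in percentile points, and a difference over 20 points is reported as a lower or higher rank. In the sort check, all 5 endothelial marker genes ranked higher in the GFP+ list, with a median promoter rank of 48.3 in GFP- and 87.9 in GFP+ nuclei. The 5 cardiomyocyte markers had peaks in both lists, at medians of 94.9 and 93.7. Fibroblast markers moved from a median of 83.8 to 0, with 3 of 5 absent from the GFP+ list, and mural markers from 76.5 to 30.2, with 3 of 6 absent. Of the defining markers of Schwann cells and neurons, Sox10 and Th had no promoter peak in either list. In bulk nuclei, fewer nuclei of a cell type and less open chromatin per nucleus cannot be told apart.

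The sequences that the results turn on come from GRCm38 (mm10) and are given here in 3 sets. The first set holds the 250 bases before the RefSeq start of 3 members whose promoter peak was lower or absent in GFP+ nuclei, with each CpG in capitals, because CpG content differed between members that kept and lost their peak. RefSeq entries were matched for 102 of 140 members. Kcnip3, a calcium-binding channel partner, is shown at the internal start that carries its peak (chr2:127482500-127482749, minus strand, 23 CpG), and Kcnj8 (chr6:142571615-142571864, minus strand, 6 CpG) and Scn7a (chr2:66784911-66785160, minus strand, 3 CpG) at their gene starts.
Kcnip3: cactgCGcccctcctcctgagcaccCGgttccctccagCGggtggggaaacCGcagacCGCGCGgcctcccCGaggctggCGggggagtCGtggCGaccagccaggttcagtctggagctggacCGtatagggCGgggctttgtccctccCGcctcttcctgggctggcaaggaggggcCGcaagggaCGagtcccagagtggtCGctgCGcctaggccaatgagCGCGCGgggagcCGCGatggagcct
Kcnj8: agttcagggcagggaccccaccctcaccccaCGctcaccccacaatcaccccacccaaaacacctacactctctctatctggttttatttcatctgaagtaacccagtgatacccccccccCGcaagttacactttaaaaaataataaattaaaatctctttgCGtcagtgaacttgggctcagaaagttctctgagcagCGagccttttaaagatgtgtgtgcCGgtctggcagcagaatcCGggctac
Scn7a: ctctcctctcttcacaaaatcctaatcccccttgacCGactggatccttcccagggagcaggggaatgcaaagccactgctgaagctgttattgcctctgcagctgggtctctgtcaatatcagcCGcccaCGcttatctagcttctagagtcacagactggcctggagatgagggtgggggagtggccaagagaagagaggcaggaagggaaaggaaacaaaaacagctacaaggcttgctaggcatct

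The second set holds 200 bases around the summit of 4 distal regions, given on the plus strand with the matched word in capitals. Kcnh2 (chr5:24337456-24337655, intronic) holds a MEF2 word, the site of a muscle transcription factor, and was open in both populations. Kcne1 (chr16:92345242-92345441), which had no promoter peak, holds a CArG word, the site of serum response factor. Kcnn3 (chr3:89634023-89634222, intronic) holds 3 copies of the word of the fibroblast factor TCF21 (AACAGCTG or its complement) and was open only in GFP- nuclei. The 3 copies lie in a sequence repeated in tandem, with nearly the same bases around each. Kcnj15 (chr16:95321986-95322185) holds an ETS word (ACTTCCTG or its complement), the site of a factor family that includes endothelial regulators, and ranked higher in GFP+ nuclei.
Kcnh2: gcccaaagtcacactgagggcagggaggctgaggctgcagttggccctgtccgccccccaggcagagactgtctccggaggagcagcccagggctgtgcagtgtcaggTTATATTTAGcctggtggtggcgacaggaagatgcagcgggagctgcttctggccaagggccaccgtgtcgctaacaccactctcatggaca
Kcne1: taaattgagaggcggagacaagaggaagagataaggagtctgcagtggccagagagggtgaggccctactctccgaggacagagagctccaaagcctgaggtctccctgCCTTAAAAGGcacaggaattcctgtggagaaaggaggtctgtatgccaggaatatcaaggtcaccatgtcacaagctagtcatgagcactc
Kcnn3: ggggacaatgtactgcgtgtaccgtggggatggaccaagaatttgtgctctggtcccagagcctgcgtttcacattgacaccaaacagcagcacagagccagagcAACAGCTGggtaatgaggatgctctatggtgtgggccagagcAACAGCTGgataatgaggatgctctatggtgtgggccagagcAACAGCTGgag
Kcnj15: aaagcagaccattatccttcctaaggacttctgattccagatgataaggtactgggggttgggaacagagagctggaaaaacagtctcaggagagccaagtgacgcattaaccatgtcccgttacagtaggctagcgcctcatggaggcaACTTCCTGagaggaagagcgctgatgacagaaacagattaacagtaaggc

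The third set holds the 6 distal RE1-like sites of members that carried the left arm of RE1 (TTCAGCACC) and differed from the full 21-base RE1 consensus at no more than 3 of its fixed positions. They are read in the direction of the site, with the 2 spacer bases in lower case, and were chosen after their values were seen. They lie at Kcnip2 (chr19:45813955-45813975, plus strand), Kcnh2 (chr5:24357609-24357629, minus strand), Scn10a (chr9:119664301-119664321, plus strand, and chr9:119706898-119706918, minus strand), Kcnk9 (chr15:72568657-72568677, minus strand) and Kcnj6 (chr16:94995715-94995735, minus strand).
Kcnip2: TTCAGCACCgtGGACAACGAC
Kcnh2: TTCAGCACCtcGGACAGAGGC
Scn10a, 55048 bp into the gene: TTCAGCACCagGGACAGAGCT
Scn10a, 12399 bp into the gene: TTCAGCACCacGGACAGAGCA
Kcnk9: TTCAGCACCgaGGACAGTGAT
Kcnj6: TTCAGCACCaaGGCCAGAGCA

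Channel promoters had a peak in either list about as often as other promoters, but less often in GFP+ nuclei. They also ranked lower and moved more between the populations. A promoter peak was present at 82 members (58.6%) in GFP- and at 70 (50%) in GFP+ nuclei, beside 61.8% and 59.8% of all protein-coding genes. Both lists held a peak for 66 members, 16 had a peak only in the GFP- list (background 4.71% of genes with a peak), 4 only in the GFP+ list (background 1.46%), and 54 had none. Either list held a peak for 61.4% of members, beside 62.7% of all genes. Among the 86 members with a peak, the median rank was 72.4 in GFP- and 63.8 in GFP+ nuclei, beside 90.3 and 88.6 for all genes with a peak. The rank difference stayed within 5 points for 38 members (44.2%, background 75.6%). It was lower in GFP+ nuclei by over 20 points for 19 members (22.1%, background 7.33%) and higher for 3 (background 1.94%). The median difference was -4.21 for the members and -0.81 for all genes.

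Low ranks move more readily, so the same count was taken at matched height. Of the 28 members whose higher rank lay between 75 and 90, 6 were lower in GFP+ by over 20 points (21.4%, background 5.83%), namely Kcng4, Kcnt2, Cacng7, Cacna1d, Kcnj8 and Cacna1h. Of the 15 members above 90, Kcnip3 was lower (background 0.896%). Below 75, where 5 of 21 and 7 of 22 members were lower, the shares lay near the backgrounds of 28.3% and 28.5%. When only the 60000 largest peaks of each list were ranked, 13 members were lower (16.7%, beside 5.42% of all genes), and the median moved to -0.22 for members and 0.45 for all genes.

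**Figure D1:**
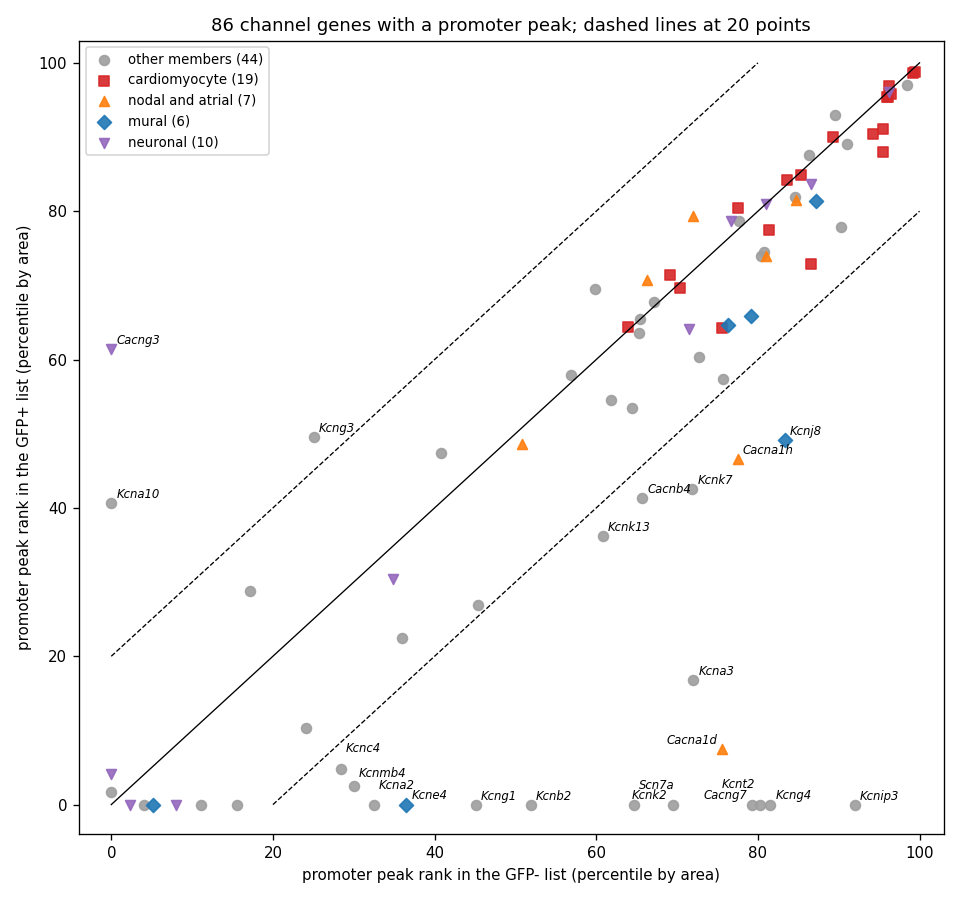
Promoter rank in the GFP- list (x axis) against the GFP+ list (y axis), in percentiles by peak area, for the 86 members with a promoter peak, 1 point per gene and coloured by channel list. Most cardiomyocyte channels lie along the diagonal, and 19 members lie below the lower dashed line, 20 points under it, with Kcnip3 at 92.0 and 0 farthest from it.

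The channels of the working cardiomyocyte had open promoters in both populations. Of the 20 genes in this list, 19 had a promoter peak in GFP- and 19 in GFP+ nuclei, with median ranks of 89.3 and 88.0. The median difference was -0.63, beside -0.81 for all genes with a peak. Of the 19 genes, 16 stayed within 5 points (84.2%, background 75.6%), a share near that of all genes. None was past 20 points (background 7.33% lower and 1.94% higher). The background of lower ranks was 5.83% for a higher rank between 75 and 90 and 0.896% above 90. When peaks were ranked by area per bp, 3 were lower by over 20 points, Kcnd3 and Kcnj12 among them, and the list's median was -11.3. By the p-value at the summit, Scn4b was lower by over 20 points.

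The sodium channel beta subunit Scn4b had a promoter rank of 75.6 in GFP- and 64.2 in GFP+ nuclei. Of the L-type calcium channel, the accessory subunits Cacnb2 (96.0 and 95.4) and Cacna2d1 (95.5 and 91.0) stayed within 5 points, and the pore subunit Cacna1c went from 95.5 to 88.0, with the highest peak at a different start in each list. Its difference was -0.61 by the p-value at the summit and 19.8 by area per bp.

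Repolarizing channels held the highest ranks. Kcnj11, the pore of the ATP-sensitive channel of the cardiomyocyte, was at 99.4 and 98.7, and its GFP- peak spanned 4476 bp beside 2990 bp in the GFP+ list. Kcnk3, an acid-sensitive background channel, was at 99.2 and 98.7. The delayed rectifiers Kcnh2 (96.5 and 95.8) and Kcnq1 (89.3 and 89.9) differed by under 1 point. The transient outward channels Kcnd3 (94.2 and 90.4) and Kcnd2 (83.6 and 84.2) and their partner Kcnip2 (81.4 and 77.4) stayed within 5 points, as did the inward rectifiers Kcnj2 (96.1 and 95.3) and Kcnj12 (77.6 and 80.4). Kcna4, Kcna5 and Hcn2 ranked between 64.0 and 71.4 in both populations, near the lower end of the list with Scn4b. Kcne1, the beta subunit of Kcnq1, was the only gene of the list without a promoter peak in either population.

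**Figure D2:**
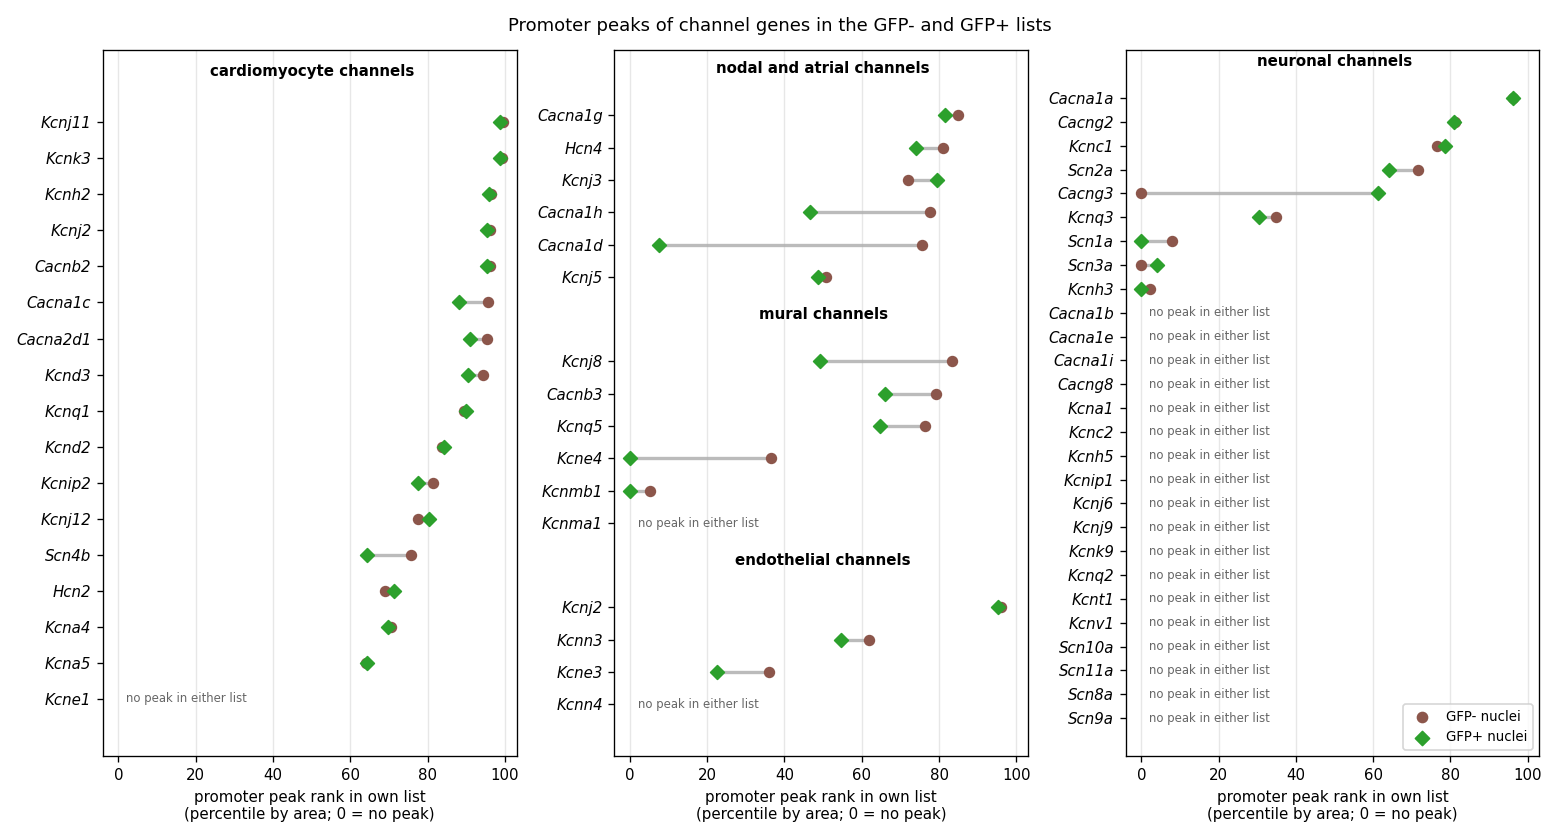
Promoter rank (x axis, percentile by area in its own list, 0 where no peak was found) of genes of the cardiomyocyte, nodal and atrial, mural, endothelial and neuronal channel lists, with a circle for GFP- and a diamond for GFP+ nuclei joined by a line. The symbols nearly coincide for most cardiomyocyte channels, the mural channels with a peak lie lower in GFP+ nuclei, and 18 neuronal channels have no peak.

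The nodal and atrial list had peaks for 7 of 7 genes in both populations and a median difference of -3.20, which ranged from -19.1 to 0.06 over the alternative rankings. The pacemaker channel Hcn4 (81.0 and 73.9), the T-type channel Cacna1g (84.8 and 81.6) and the atrial rectifiers Kcnj3 (72.0 and 79.4) and Kcnj5 (50.8 and 48.6) moved by under 8 points. By area per bp, however, Cacna1g was at -55.0 and Kcnj3 turned to -24.6. Other genes of the list moved farther. Cacna1d, the L-type channel of pacemaker cells, went from 75.6 to 7.51, and the T-type channel Cacna1h from 77.5 to 46.5. For Cacna1h the GFP- peak was the longer, 1674 bp beside 485 bp, and its difference turned to 8.19 when area was divided by length.

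The mural channels moved together. All 6 genes with a peak ranked lower in GFP+ nuclei, at a median difference of -12.5 (from -34.2 to -9.58 over the alternatives), and 2 of 6 were past 20 points. By area per bp 4 of 6 were lower, with Kcnq5 at 18.6. Kcnj8, the pore of the vascular ATP-sensitive channel, went from 83.4 to 49.1. Kcne4, a beta subunit of vascular Kv channels, went from 36.5 to no peak, although with the 60000 largest peaks its difference was -16.5. Kcnmb1 had a small GFP- peak at rank 5.20 and none in GFP+ nuclei. Cacnb3 (79.2 and 65.9) and Kcnq5 (76.3 and 64.6) kept peaks in both lists. For Cacnb3 the highest peak was at a different start in each list. Its starts 965 to 1541 bp from the 5′ end were at 79.2 and 53.0, and those at 3927 and 4265 bp at 78.9 and 65.9. At the gene-record start alone, Kcnq5 had no GFP+ peak and a difference of -76.3. Kcnma1 had no promoter peak at any of its 14 starts. The mural markers moved in the same direction, 6 of 6 lower, with ranges of 16.2 to 85.6 in GFP- and 0 to 76.1 in GFP+ nuclei, and their part in these differences was not tested.

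The channels known from endothelium did not rank higher in GFP+ nuclei. Kcnj2 was at 96.1 and 95.3, Kcnn3, the small calcium-activated channel of ECs, at 61.8 and 54.5, and Kcne3 at 36.0 and 22.5, while Kcnn4 had no peak. None of the 3 was lower among the 60000 largest peaks of each list, and Kcne3 was higher in GFP+ nuclei by 27.4 when area was divided by length. Skeletal muscle channels served as a contrast: the calcium channel Cacna1s and the sodium channel Scn4a had no promoter peak, Cacng1 had a peak at rank 1.67 in GFP+ nuclei alone, and the potassium channel Kcna7 was at 67.1 and 67.7.

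Neuronal channels mostly had no promoter peak. Of 28 genes, 10 had a promoter peak, 6 of them in both lists, and 18 had none, among them the sensory neuron channels Scn10a and Scn11a, which were named after their values were seen. The P/Q-type calcium channel Cacna1a was at 96.3 and 96.1, the fast Kv channel Kcnc1 at 76.6 and 78.7, the AMPA receptor partner Cacng2 at 81.06 and 81.04, and Scn2a at 71.5 and 64.1. The Cacna1a peak lay at an annotated start 250551 bp downstream of the outermost start, which had no peak. That annotated start (chr8:84638991) is close to the 3′ end of the gene at 84640246. Cacna1a starts 26924 to 27344 bp downstream of the outermost one were at 59.2 in GFP- and had no peak in GFP+ nuclei. Cacng3, a relative of Cacng2, stood apart with no GFP- peak and a GFP+ rank of 61.4, and a distal region 133882 bp downstream of its start ranked 32.2 in GFP- and 81.0 in GFP+ nuclei. With a window of 1000 bp the promoter difference of Cacng3 was 12.7. Of the 6 markers of Schwann cells and neurons, 3 had a GFP- peak and all 3 were lower in GFP+ nuclei.

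Most of the members that moved far belonged to none of these lists. Of the 67 members in no list, 39 had a peak, with a median difference of -12.4, and 15 of them were lower in GFP+ by over 20 points (38.5%). The background was 7.33% over all genes with a peak and 28.5% for a higher rank between 50 and 75, and the median GFP- rank of these members was 65.3. Kcnip3 had the largest drop, from 92.0 to no peak. The silent Kv subunit Kcng4 (81.5), the sodium-activated channel Kcnt2 (80.3), the AMPA receptor partner Cacng7 (79.3), the mechanosensitive background channel Kcnk2 (69.4), the sodium-sensing Scn7a (64.7), the delayed rectifier Kcnb2 (51.9) and the silent subunit Kcng1 (45.1) also had a peak in the GFP- list alone. Kcna3, known from lymphocytes, went from 72.0 to 16.8, and of the 4 leukocyte markers Cd68 went from 31.8 to 16.8 while Ptprc, Csf1r and Cd3e had no promoter peak in either list. The part of such cells in the drop was not tested. For Kcnb2 the drop rested on the window, since within 1000 bp of the start the difference was -6.05. The fibroblast markers moved in the same direction, 5 of 5 lower, with ranges of 51.5 to 96.5 in GFP- and 0 to 87.0 in GFP+ nuclei, and their part in these drops was not tested.

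Of the 3 members that ranked higher in GFP+ nuclei, Cacng3 was described above, Kcna10 had a peak at 40.6 in the GFP+ list alone, and the silent subunit Kcng3 went from 25.1 to 49.6. These were weaker calls, with Kcna10 at 17.5 among peaks with an area of at least 400 and Kcng3 at 1.74 when area was divided by length.

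Transcript starts of the same gene did not always behave alike. The 140 members had 590 annotated starts, of which 203 lay within 250 bp of a peak in either list, and 53 members had peaks at some starts and not at others. Cacna1c had 2 groups of starts with high ranks. The group at the 5′ end was at 91.9 in GFP- and 88.0 in GFP+ nuclei, and the group 87845 to 88443 bp downstream at 95.5 and 87.4. Cacnb2 differed more between its groups. The start 220938 bp downstream was at 96.0 and 95.4, and the start 1218 bp from the 5′ end at 84.6 and 61.6. Kcnh2 had peaks in both lists at its 5′ end and at starts 22013 bp (93.3 and 92.3) and 25085 bp (72.3 and 69.3) downstream.

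For the genes that lost their peak, the start mattered too. The Kcnip3 peak lay 39595 bp downstream of the 5′ end, where neither list had a peak, and the Kcnk2 peak 58081 to 58918 bp downstream. Cacna1d had a GFP- peak of rank 75.6 at a start 445477 bp downstream that was absent from the GFP+ list, and a peak at 60.1 and 7.51 at the start 137969 bp downstream. The drops of Kcnt2, Kcng4 and Scn7a were at the outermost start.

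Promoter CpG content differed between genes with a peak in both lists and the others. The ratio of observed to expected CpG in the 501 bp around the gene-record start exceeded 0.6 for 55 members (39.3%) beside 49.4% of all genes. Its median was 0.70 for members with a peak in both lists, 0.38 for those with a peak only in the GFP- list and 0.39 for those with none, beside 0.78, 0.45 and 0.20 over all genes, so that genes with a peak in both lists had the highest ratio in either set. Of the CpG-rich members with a peak, 5 of 40 were lower in GFP+ by over 20 points (12.5%, beside 3.92% of all CpG-rich genes with a peak), and of the CpG-poor members 14 of 46 (30.4%, beside 16.1%). For Kcnip3, Kcnk2 and Cacna1d the gene-record start is not the start with the peak. Kcnip3 thus counted as CpG-poor at a ratio of 0.30, and for such genes the split does not describe the promoter that changed. The printed promoters show the range. Scn7a and Kcnj8 are CpG-poor, while the internal Kcnip3 start that lost its peak is dense in CpG.

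Distal regions were then assigned to the gene with the nearest start. A distal region is a merged peak of either list with its summit outside exons and more than 1000 bp from any annotated start. The members had 721 such regions at 115 genes, 82.1% of members beside 55.3% of all genes. Of these, 429 were in both lists (59.5%, background 56.4%), 224 only in the GFP- list (31.1%, background 32.2%) and 68 only in the GFP+ list (9.43%, background 11.5%). By rank, 164 regions were lower in GFP+ nuclei by over 20 points (22.7%, background 27.1%) and 50 higher (6.93%, background 8.65%). The median rank difference was -4.92, beside -5.78 over all genes, and with the 60000 largest peaks of each list it turned to 3.54 for members and 2.18 for all genes. Thus the sharing of distal regions at channel genes as a whole lay near the background.

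Sharing differed among the lists. Cardiomyocyte channels had 271 regions, 66.8% of them in both lists, and mural channels 57 regions, 49.1% in both and 1 only in the GFP+ list, with a median difference of -14.6. The endothelial channels lay near the mural ones, with 28 regions, 50% in both and 1 only in the GFP+ list, at a median difference of -10.4. Neuronal channels had 104 regions, 60.6% in both. Among structural families, the accessory potassium channel subunits shared 45.1% of 71 regions and the Cacna2d subunits 76.5% of 34. When an overlap of 50% of both peaks was required, the share fell to 49.3% for all members, 52.3% for cardiomyocyte and 50% for neuronal channels.

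**Figure D3:**
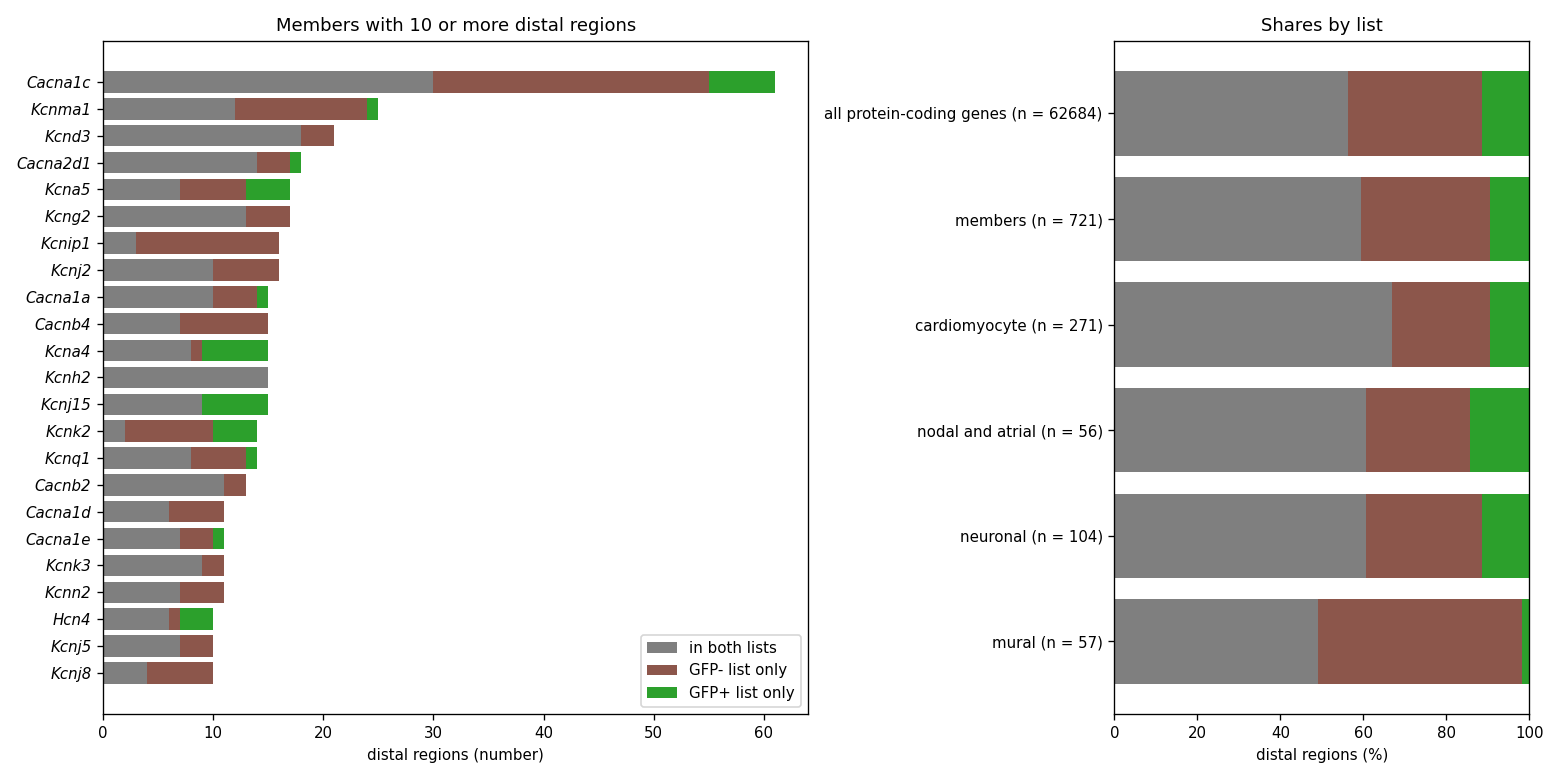
Distal regions of members with 10 or more (left, number) and as shares by channel list (right, %), divided into regions in both lists, only in the GFP- list and only in the GFP+ list. Cacna1c has 61 regions, all 15 of Kcnh2 are shared, 13 of 16 at Kcnip1 are in the GFP- list alone, and Kcnj15 has none of that class.

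Kcnh2 had 15 distal regions and all were in both lists, at a median difference of 0.30, although one 6651 bp into the gene went from 48.4 to 9.89. The printed region 14048 bp into the gene was at 82.8 and 80.1, and a region 85036 bp downstream of the start at 91.8 and 90.6. Kcne1, with no promoter peak, had 5 distal regions, and the printed one 14126 bp downstream of its start was at 86.0 and 83.8. Kcnd3 shared 18 of 21 regions, with its highest 69044 bp into the gene at 85.4 in both lists.

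Cacna1c had more distal regions than any other member, 61, all inside its gene body of 609179 bp. The start of Dcp1b lies 21165 bp from that of Cacna1c, and regions nearer to a Dcp1b start are not counted here. Among these, a region 2644 bp into Cacna1c was at 92.2 and 88.7. Of the 61, 30 were in both lists, 25 only in the GFP- and 6 only in the GFP+ list, and the median difference was -13.9. The highest region of the GFP- list alone lay 203851 bp from the start at rank 74.3, while a region 246363 bp from the start was in the GFP+ list alone at 51.2. The highest shared region, 56705 bp from the start, was at 92.4 and 90.02. Without Cacna1c, 60.5% of the members' regions were in both lists.

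**Figure D4:**
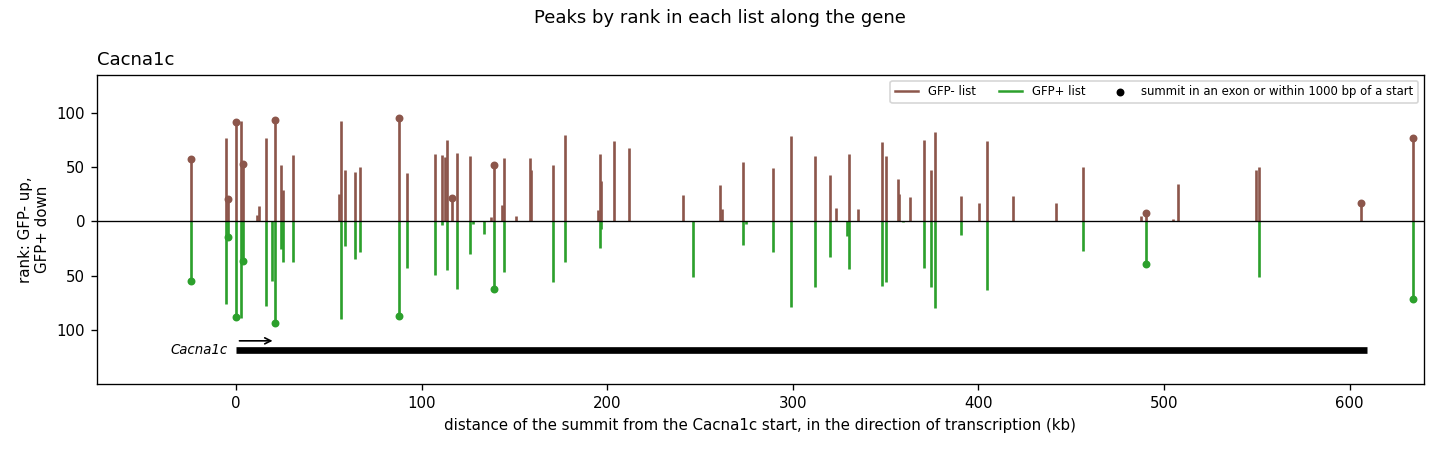
Peaks along Cacna1c, by distance of the summit from its start in kb (x axis), with the rank in the GFP- list drawn upward and in the GFP+ list downward and dots for peaks in exons or near starts. Of the 61 distal regions nearest to the gene, 25 have an upward bar only.

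At the genes that follow, every distal region found in a single list was in the GFP- list. Kcnip1 had no promoter peak, and 13 of its 16 regions were in the GFP- list alone, at a median difference of -26.9. Its highest, 246495 bp into the gene, was at 80.9 and absent from the GFP+ list, and others at 143386 bp (65.2), 192174 bp (65.0) and 131793 bp (60.2) were absent as well. The mural subunit Kcnmb1 lies inside Kcnip1 on the other strand, with its start 30139 bp from that of Kcnip1, so that assignment by the nearest start cannot separate the pair. Kcne4, whose nearest neighbouring gene start lies 158720 bp away, had 6 of 8 regions in the GFP- list alone, among them one 45676 bp downstream at 70.9, and its highest region fell from 88.7 to 73.7. Cacnb4, a calcium channel beta subunit, had 8 of 15 in the GFP- list alone, led by regions 109182 bp (83.9) and 95963 bp (78.8) into the gene. The printed Kcnn3 region, 113959 bp into the gene and holding 3 TCF21 words in a tandem repeat, was at 77.5 and absent from the GFP+ list.

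The opposite pattern was seen at Kcnj15, an inward rectifier without a promoter peak. Of its 15 distal regions, 6 were in the GFP+ list alone, none in the GFP- list alone, and 12 ranked higher in GFP+ nuclei, at a median difference of 24.1. The printed region 64528 bp downstream of the start went from 33.7 in GFP- to 84.4 in GFP+ nuclei. Regions 89904 bp (74.1), 87637 bp (56.5) and 46503 bp (56.0) downstream were absent from the GFP- list, while a region at 83838 bp was at 87.7 and 88.6. The next gene is Erg, which encodes an ETS factor of ECs and points toward Kcnj15 from a start 329035 bp away, and the 5 regions just named lie between the 3′ ends of both genes. The endothelial markers moved in the same direction, 5 of 5 higher, with promoter ranks of 0 to 74.3 in GFP- and 66.9 to 98.7 in GFP+ nuclei, and their part in these differences was not tested.

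**Figure D5:**
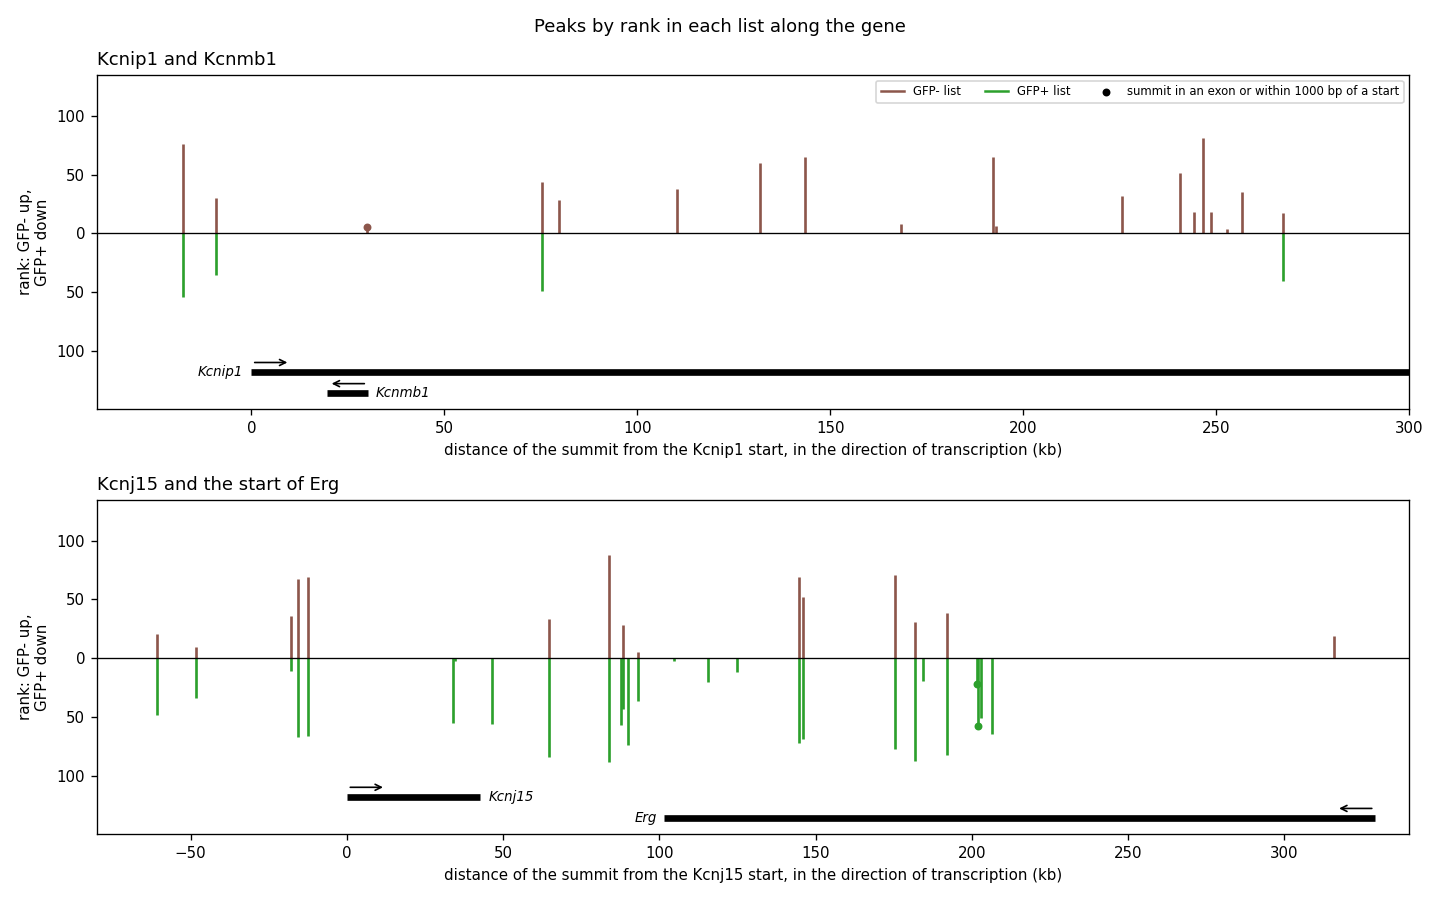
Peaks along Kcnip1 with Kcnmb1 (top) and along Kcnj15 up to the start of Erg (bottom), by distance of the summit in kb (x axis), with GFP- ranks upward and GFP+ ranks downward. At Kcnip1 14 of 18 distal regions of the gene pair have an upward bar only, and at Kcnj15 6 of 15 have a downward bar only.

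Short words were counted in the 200 bp around the summits of distal regions, on both strands. The MEF2 word was found in 9.02% of the members' regions beside 5.88% of all distal regions, in 10.7% of those in both lists beside 7.51%, and in 11.4% of the regions of cardiomyocyte, 10.5% of mural and 9.62% of neuronal channels. Among regions in both lists it was in 24 of 181 at cardiomyocyte (13.3%) and 5 of 28 at mural channels (17.9%). The GATA word (AGATAAG) was in 5.27% beside 3.80%, and in 7.38% at cardiomyocyte, 3.51% at mural and 0.962% at neuronal channels. The CArG word was in 1.66% beside 1.19%, and at cardiomyocyte channels in 2 of 271 regions (0.738%), below the share of all distal regions. The TCF21 word was in 11 of 224 regions found only in the GFP- list, 4.91% beside 5.87% of all such regions, and the ETS word in 2 of 68 found only in the GFP+ list, 2.94% beside 5.90%. At promoter summits, 0 of 86 members held the MEF2 word (background 0.982% of 13643 promoters). The words for TCF21 and ETS were thus no more frequent at channel regions of their class than elsewhere.

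The left arm of RE1 was found at a larger share of members than of all genes. It stood within 100 bp of the promoter summit of 7 members (8.14%, beside 0.491% of all 13643 promoters) and of the summit of 10 distal regions (1.39%, beside 0.284%). The promoters included those of Cacng2, Cacng3, Kcnc1, Kcnh6, Kcnk3 and Kcns2, with 3 of the 10 neuronal channels that had a peak. Kcns2 and the genes of the distal sites Kcnk9, Kcnj6 and Scn10a were named after their values were seen. The promoter sites differed from the consensus at 5 to 8 positions, so that 0 of 7 had at most 3 mismatches, beside 23.9% of 67 promoter sites over all genes. Of the 10 distal sites, 7 lay at neuronal channels and 6 differed from the consensus at no more than 3 positions (60%, beside 23.6% of 178 distal sites over all genes). The word also stood within 1000 bp of the gene-record start of 14 of 140 members (10%), beside 2.93% of all genes.

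Of the members' peaks with the RE1 arm, 6 of 7 at promoters were in both lists (85.7%, beside 85.1% of such promoters over all genes) and 8 of 10 distal ones (80%, beside 57.3%). The Kcnip2 site, 1 bp from the summit of a region 2097 bp into the gene, was in a region ranked 68.5 in GFP- and 72.6 in GFP+ nuclei, and the Kcnh2 site in a region 6070 bp upstream at 54.2 and 62.0. At Scn10a, the site in the region 12399 bp into the gene was at 33.1 and 10.5, and the site at 55048 bp in a region of the GFP+ list alone at 17.7. Kcnk9, an acid-sensitive background channel, had its site in a region at 28.2 and 13.2, and Kcnj6, a neuronal rectifier, at 32.9 and 8.92. A match of letters describes the sequence and does not show that a factor was bound there.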

How the data were processed

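ATAC-Seq libraries from sorted GFP+ and GFP- heart nuclei were processed by the authors. Reads were trimmed with fastp and aligned with Bowtie2 to the mouse genome mm10, and the submitters' processing notes name Genrich, Picard and SAMtools. Libraries were downsampled to a common number of reads, and peaks were called with Genrich from both replicates of a population together. Each deposited list gives, per the file headers and values, the signal summed over the peak (area) and the −log10 p-value at the summit, both made by the authors. No per-replicate values were used here.

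Peaks were ranked by area within each list and assigned to protein-coding genes of GENCODE M21 with Python 3.11.15, pandas 2.3.3 and numpy 2.4.6. Rank rather than area was compared because the lists differ in number (78912 and 65008). The read counts behind each peak are not in the lists. Distal regions were merged where peaks overlapped by at least 1 bp. The scripts were tested on simulated data. The genes named were all genes of the cardiomyocyte, nodal and atrial, mural, endothelial and skeletal muscle lists, the 10 members with the largest difference in each direction, members with a peak of rank 50 or more in a single list, the 8 members with the most distal regions and those at the 8 highest regions of a single list, for each list, and the 8 neuronal channels of highest rank. Exceptions are stated where they occur. Some genes of these lists are counted in the summaries but not reported here by name. The members and lists were chosen with earlier results of these data known. Alternatives were the start used, a window of 1000 bp, ranking by the summit p-value or by area per bp, an area minimum of 400, the 60000 largest peaks, genes with a peak in both lists, an overlap of 50%, and limits of 2000 and 100000 bp on distal regions. With a single list per population no test was made.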

Additional observations from a re-analysis of the deposited data

How the results depend on the processing

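No paired analysis was possible because each population has a single peak list called from both replicates, and for the same reason no replicate could be left out. Ranking by area per bp gave a median promoter difference of -10.3 for the members and -11.3 for the cardiomyocyte channels, 5 members higher in GFP+ nuclei, and a reversed difference of 8.19 for Cacna1h. With an area of at least 400, 45 distal regions were in the GFP+ list alone. With the 60000 largest peaks of each list, the members' median was -0.22, 5 members were higher, and the neuronal median was 4.37. In the same setting 63.2% of distal regions were in both lists, 107 were in the GFP- list alone and the median distal difference was 3.54. An overlap of 50% of both peaks left 49.3% of the members' regions, 52.3% of cardiomyocyte and 50% of neuronal regions in both lists, with 123 in the GFP+ list alone. Among genes with a peak in both lists, 9 members were lower and 1 was higher, because genes with a peak in a single list are left out. The cause of the other changes was not tested. Several genes gave no value when only the outermost start was used, among them Kcnip3, Kcnk2, Cacna1d, Kcng1, Kcnq1, Cacnb2, Cacnb3, Kcne3 and Cacna1a. In that setting 17 cardiomyocyte channels had a value, at a median difference of -0.72 and with 0 past 20 points. Of the differences of single genes under an alternative, 378 lay within 20 points of the value reported, some of them with the opposite sign where the value was small, 28 moved by more and 1 reversed from beyond 20 points. Leaving out genes whose peak reaches another gene's start, and regions nearest to Cacna1c, were chosen after seeing the data and moved no summary beyond its margin.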
